A study of Mus musculus with 6 samples.

Results

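miR-21a is 1 hairpin of the mouse genome that yields 2 mature microRNAs (miRNAs), miR-21a-5p from its 5′ side and miR-21a-3p from its 3′ side. Both were taken by name from a table of read counts for 1966 mature miRNAs, where each is 1 row, so the set holds 2 of 1966 rows. The counts come from whole hearts of 6 male wild-type mice, collected 8 weeks after surgery, with 1 library per mouse. In 3 mice (animals 29, 78 and 81) the aortic arch had been narrowed by transverse aortic constriction (TAC), so that the left ventricle pumps against a raised pressure. The other 3 (animals 47, 68 and 69) had sham surgery. All 6 share genotype, sex, tissue and time, and the sources used here give neither strain nor age.

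A miRNA hairpin is cut to a short duplex, of which 1 strand is loaded into an Argonaute protein and guides it to messenger RNAs, while the other strand is mostly degraded. The seed, bases 2 to 8 of the loaded strand, carries most of the target recognition. miR-21-5p is the strand usually kept and one of the best studied miRNAs of the stressed heart, where it is known from cardiac fibroblasts and from targets that restrain growth signalling, such as Spry1. miR-21-3p, once called the star strand, is the strand usually discarded, and has been described in exosomes of cardiac fibroblasts.

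The mature sequences are shown because the arms of the hairpin, and the rows that resemble the 5p arm, can be told apart only by their letters. They are from RefSeq (GRCm38.p6), run 5′ to 3′, and have the seed in capitals.
miR-21a-5p: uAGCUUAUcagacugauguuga
miR-21a-3p: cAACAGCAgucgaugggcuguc
miR-21c: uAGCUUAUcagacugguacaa
miR-21b: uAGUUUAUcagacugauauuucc
The 2 arms have 22 bases each and unlike seeds. Folded against each other with RNAcofold they formed 19 base pairs, from base 1 to base 21 of the 5p arm. GC content was 36.4% for the 5p arm and 59.1% for the 3p arm. Of all rows with a sequence, only miR-21c had the seed of miR-21a-5p, and none had that of miR-21a-3p. miR-21c matches miR-21a-5p over its first 15 bases and differs at 5 of 21 aligned positions (A16G, G18A, U19C, U20A and G21A, counted from 1 at the 5′ end, the base of miR-21a-5p first). miR-21b differs at 4 of 22, with C4U inside the seed.

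On mm10 (GRCm38), miR-21a-5p lies at chr11:86584120-86584141 and miR-21a-3p at chr11:86584082-86584103, both on the minus strand and 16 bases apart. In GENCODE release M21 the hairpin is the gene Mir21a and sits on the same strand inside exon 12 of Vmp1, in the 3′ UTR, beginning 1150 bases past the stop codon. Vmp1 encodes a membrane protein of autophagy. 0 other rows of the table overlap the hairpin. The 5 other rows within 1000 kb are miR-5110, both arms of miR-12182 and both arms of miR-301a, and counts of each were between 0 and 13 in every library, too low for a test.

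miR-21a-5p was an abundant miRNA of these hearts and fell in TAC. Sham 47, 68 and 69 gave 51398, 32783 and 32059 counts, and TAC 29, 78 and 81 gave 12558, 8138 and 6278. Scaled by library size and composition (trimmed mean of M-values, TMM), the sham mice had 13139, 16454 and 12554 CPM (counts scaled to a common library size) and the TAC mice 7594, 5467 and 5898. The groups did not overlap: the lowest sham mouse, 69, was well above the highest TAC mouse, 29, and over the 9 pairs of 1 sham and 1 TAC mouse the sham level was 1.65 to 3.01 times the TAC level. Groups did not overlap, with TAC lower, in 22.0% of all tested miRNAs. The mean level of the sham mice was 14049 ± 2103 CPM and that of the TAC mice 6319 ± 1125 (here and below ± SD, n = 3 per group, unless SE is named). This was a log2 change of -1.15 ± 0.15 (SE), 2.22-fold lower in TAC with a 95% interval of 1.76 to 2.80 (edgeR quasi-likelihood test, adjusted p = 0.000901). In bulk tissue, fewer cells of a type and less RNA per cell cannot be told apart.

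**Figure D1:**
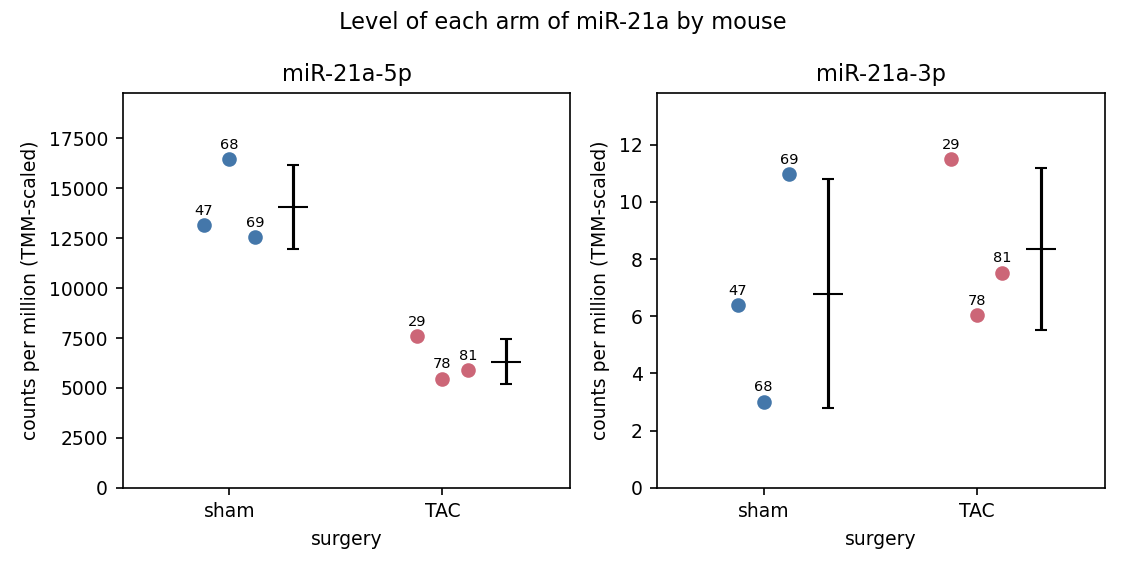
Level of miR-21a-5p (left) and miR-21a-3p (right) in CPM, with TMM scaling, on linear axes that start at 0. Points are mice, labelled by animal number, and black bars are mean ± SD of 3 mice. The 5p arm lies between 12554 and 16454 in sham and between 5467 and 7594 in TAC, whereas the ranges of the 3p arm overlap.

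Of all counts in a library, miR-21a-5p held 1.46%, 1.80% and 1.42% for sham 47, 68 and 69. For TAC 29, 78 and 81 it held 0.699%, 0.496% and 0.512%. Mean shares were 1.56% ± 0.210 for sham and 0.569% ± 0.113 for TAC, with a two-sided exact permutation p = 0.1, the smallest that 3 against 3 mice allow. Over the 6 exact tests made on miR-21a and its relatives the adjusted value was 0.15. By raw count it ranked 25, 20 and 25 among the rows of the sham libraries and 28, 31 and 31 in TAC. The level by share fell further than the level by CPM because TMM factors were 1.10 to 1.13 in sham and 0.868 to 0.921 in TAC.

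Within the whole table the fall of miR-21a-5p stood out by the level at which it occurred. edgeR tested 354 rows and called 108 of them at an adjusted p under 0.05 (30.5%), 68 higher in TAC (19.2%) and 40 lower (11.3%). Of the 2 arms, 1 was called, the 5p arm. A larger fall was seen in 9 called rows. Among 65 tested miRNAs that averaged 1000 CPM or more, 27 were called higher and 9 lower, and 0 had a larger fall. The next largest in that range was that of miR-455-3p, from 2551 ± 597 to 1343 ± 32.8 CPM (log2 change -0.93 ± 0.16, adjusted p = 0.00406 by edgeR). The balance of calls moved with the scaling, from 68 higher and 40 lower with TMM to 50 and 56 with RLE size factors and 25 and 102 with library totals. The median log2 change of all tested rows was 0.07 with TMM and -0.23 with library totals, and miR-21a-5p was at -1.22 relative to that median in both. Total counts were 1226187 to 3509001 per library, and each sham library was deeper than each TAC library.

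**Figure D2:**
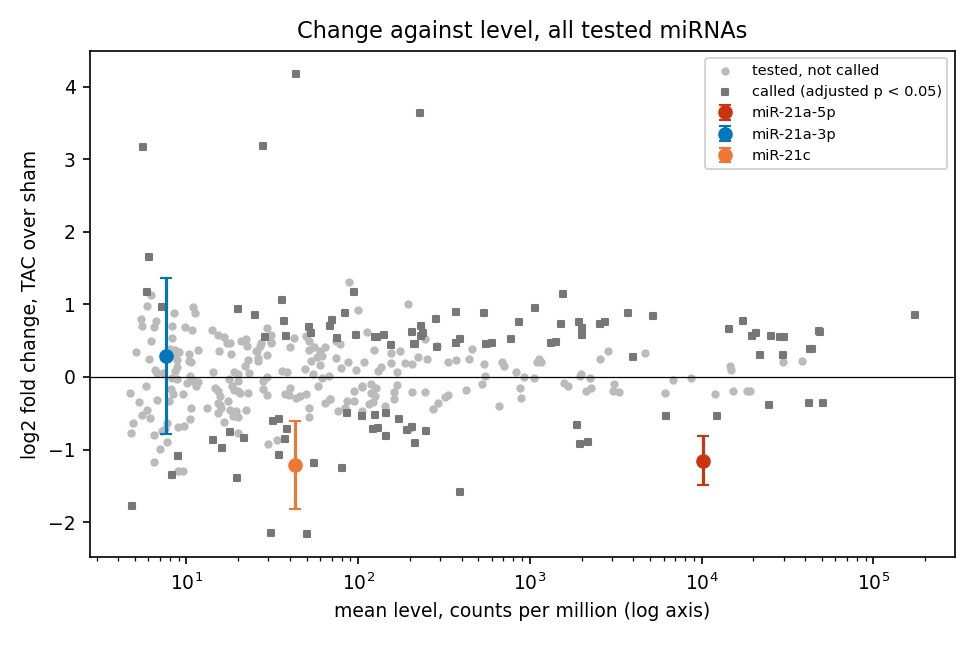
Log2 fold change in TAC over sham against mean level in CPM (log axis) for the 354 tested miRNAs. Squares are called rows, and coloured points carry 95% intervals. miR-21a-5p, at -1.15, lies below every other miRNA of at least 1000 CPM, and the interval of miR-21a-3p crosses 0.

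The miRNAs next to miR-21a-5p in mean level did not follow it to the same extent. Just above it stood miR-125b-5p, with 12908 ± 754 CPM for sham and 10952 ± 1146 for TAC (log2 change -0.24 ± 0.10 SE, not called), and miR-199a-3p, a mesenchymal miRNA that went from 14577 ± 3526 to 10088 ± 113 CPM (-0.53 ± 0.16, adjusted p = 0.0340 by edgeR). Just below it stood miR-92a-3p, of the miR-17 to miR-92 clusters, at -0.01 ± 0.11, and miR-181a-5p, at -0.04 ± 0.08, neither of them called. miR-125b-5p was called lower with RLE size factors (-0.31), upper quartile factors (-0.39) and totals without the 5 most abundant (-0.40). With library totals it, miR-92a-3p and miR-181a-5p were called lower, at -0.55, -0.32 and -0.35, each a smaller fall than the -1.46 of miR-21a-5p in that analysis. By row counts, sham levels of miR-21a-5p and miR-199a-3p did not differ beyond their spread. By the same rows, every TAC mouse had less miR-21a-5p than any TAC mouse had of miR-199a-3p. Both comparisons, and the rank of miR-199a-3p above miR-21a-5p, depend on how reads with 2 places in the genome were counted, which is not stated. miR-199a has 2 places. Its mature 3p sequence also has the row miR-199b-3p, with means of 7288 ± 1763 CPM for sham mice and 5043 ± 56.1 for TAC mice. For sham 47, 68 and 69 the miR-199a-3p row had 14930, 17913 and 10888 CPM and the miR-199b-3p row 7465, 8955 and 5443. For TAC 29, 78 and 81 these were 10143, 9958 and 10163 against 5071, 4979 and 5080. The proportion was nearly the same in every mouse, as counting a read in full at each place or dividing it evenly would both give. If counted in full, the level of the sequence is that of the miR-199b-3p row. In every mouse miR-21a-5p was higher than miR-199b-3p. The limit on level holds at least for miR-125b-5p and miR-181a-5p too. Each has 2 hairpins, with the separate rows miR-125b-1-3p and miR-125b-2-3p, and miR-181a-1-3p and miR-181a-2-3p. Their rank next to miR-21a-5p therefore also depends on how such reads were counted.

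miR-21a-3p was near the lower limit of what these libraries can measure. Sham 47, 68 and 69 gave 25, 6 and 28 counts, and TAC 29, 78 and 81 gave 19, 9 and 8. At 95%, exact Poisson intervals ran from 2.20 to 13.1 for the lowest of these counts and from 18.6 to 40.5 for the highest. They cover counting error only, as reads without molecular identifiers are not independent molecules. In CPM the sham mice had 6.39, 3.01 and 10.96 and the TAC mice 11.5, 6.05 and 7.52. The groups overlapped, with sham 68 lowest and TAC 29 highest, and the spread within sham was wider than the gap between the means of 6.79 ± 3.99 and 8.35 ± 2.82. The row passed the filter on low counts and was not called (log2 change 0.29 ± 0.47, adjusted p = 0.638 by edgeR). The 95% interval, from 0.581-fold to 2.58-fold in TAC over sham, leaves room for a change in either direction. For the 5p arm the interval of the same ratio was 0.357-fold to 0.567-fold.

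The share of miR-21a reads that came from the 3p arm was higher in TAC. Among reads of both arms, 0.0486%, 0.0183% and 0.0873% were from the 3p arm in sham 47, 68 and 69, against 0.151%, 0.110% and 0.127% in TAC 29, 78 and 81. The groups did not overlap. The exact (Clopper-Pearson) 95% intervals of single libraries did for 2 of 3 sham mice. That of sham 47 (0.0315% to 0.0718%) overlapped those of TAC 78 (0.0505% to 0.210%) and TAC 81 (0.0550% to 0.251%). That of sham 69 (0.0580% to 0.126%) overlapped these and that of TAC 29 (0.0910% to 0.236%). That of sham 68 (0.00672% to 0.0398%) overlapped none. The 5p arm therefore outnumbered the 3p arm 2056, 5464 and 1145 times in sham and 661, 904 and 785 times in TAC. On the log2 scale, with 0.5 counts added to each arm, the ratio averaged 11.14 ± 1.09 for sham and 9.53 ± 0.21 for TAC. The difference of -1.60 had a two-sided exact permutation p = 0.1, again the smallest possible, and an adjusted value of 0.15 over the 6 tests. Library size cancels in this ratio. The size of the difference rests on sham 68, whose 6 counts of the 3p arm were the fewest of all: without it the difference was -1.02, and without sham 69 it was -2.10. With every library thinned to 1226187 counts it was -1.57.

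**Figure D3:**
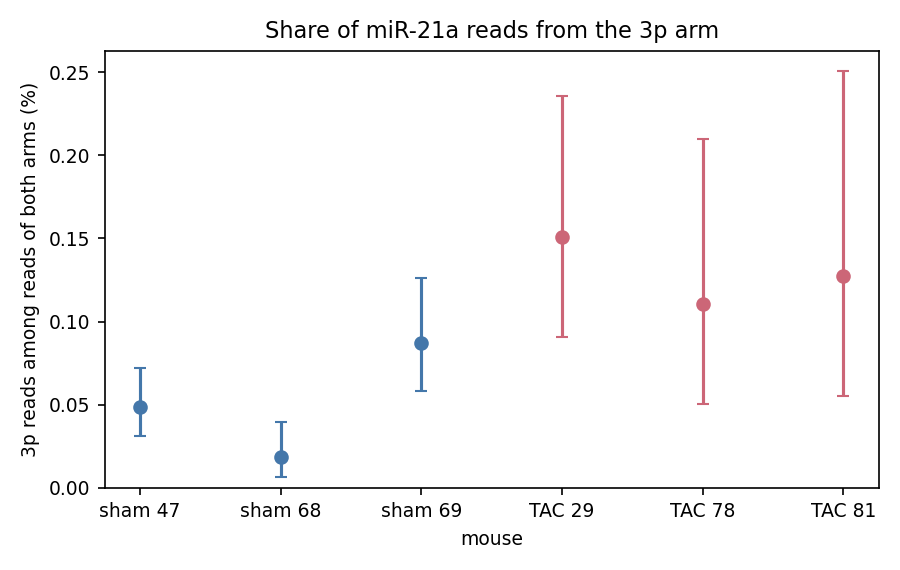
Reads from the 3p arm as a percent of the reads of both arms of miR-21a in each mouse, on an axis that starts at 0. Bars are exact 95% binomial intervals, for counting error only. The TAC mice lie between 0.110% and 0.151% and the sham mice between 0.0183% and 0.0873%, and only the interval of sham 68 lies below all 3 TAC intervals.

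Other hairpins give the scale of such a shift. Of the hairpins whose arms can be matched by name, 88 had both arms tested, and the median absolute difference in the log2 ratio of the arms was 0.32. In 11 of the 88 (12.5%) the groups did not overlap and the ratio of 5p to 3p was lower in TAC, as it was for miR-21a, so that separation alone was not unusual. By size of the difference miR-21a was second of the 88. Only miR-296 was ahead of it, with a difference of 1.71 in the other direction, since its 3p arm fell by 2.17 on the log2 scale. Next came miR-708, at -1.29. The rank rests in part on sham 68: without it the difference of miR-21a was -1.02 and ranked 6 of 88, and leaving out any other mouse gave ranks of 1 to 3. The rarer arm had 95 counts over all libraries for miR-21a, 727 for miR-296 and 63 for miR-708. Both arms were called in 13 hairpins, and in all 13 they moved the same way. In 8 hairpins, with miR-21a among them, only the 5p arm was called. miR-21a ranked 3 of 88 in the excess of the 5p arm over the 3p arm, averaged over the mice.

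**Figure D4:**
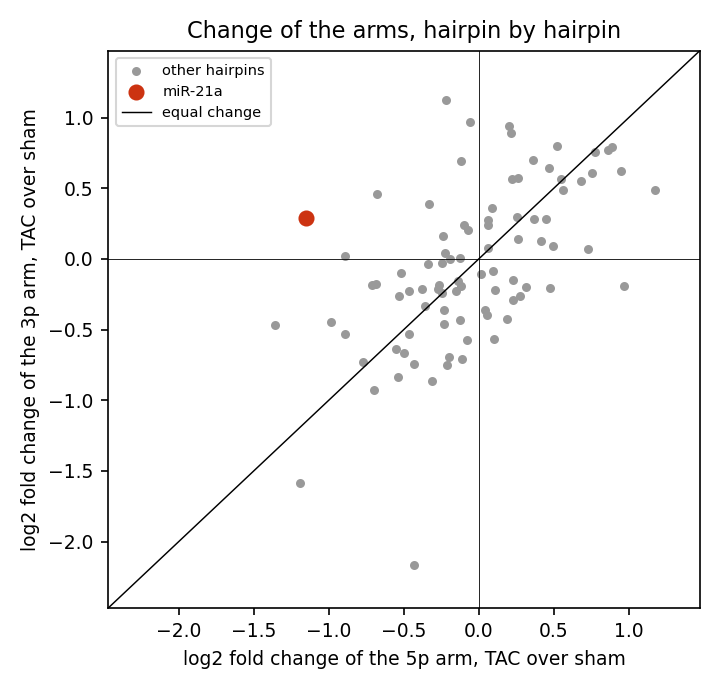
Log2 fold change in TAC over sham of the 3p arm (y axis) against that of the 5p arm (x axis) for 88 hairpins with both arms tested. Points on the diagonal have equal changes in both arms. miR-21a, in red, is at -1.15 for the 5p arm and 0.29 for the 3p arm, away from the diagonal.

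The rows that resemble miR-21a-5p were scarce. For miR-21c, sham 47, 68 and 69 gave 194, 159 and 132 counts and TAC 29, 78 and 81 gave 50, 43 and 18. Its mean was 60.4 ± 16.9 CPM for sham and 25.3 ± 7.33 for TAC. The groups did not overlap. Its log2 change of -1.22 ± 0.27 (edgeR, adjusted p = 0.0108) was close to that of miR-21a-5p. Relative to the counts of miR-21a-5p, miR-21c stood at 0.377%, 0.485% and 0.412% in sham and 0.398%, 0.528% and 0.287% in TAC, overlapping ranges (exact permutation p = 0.9, adjusted value 1). Whether its reads come from its own place on chromosome 8 or from miR-21a-5p molecules with altered ends was not tested, so it is no independent measurement of the fall. Adding its counts to those of miR-21a-5p left the change at -1.15. miR-21b had between 3 and 10 counts in every library and did not pass the filter for the edgeR test. Relative to the counts of miR-21a-5p it stood at 0.0195%, 0.0183% and 0.0312% in the sham mice and 0.0398%, 0.0369% and 0.0478% in the TAC mice. These groups did not overlap (exact permutation p = 0.1, adjusted value 0.15). The denominator of this ratio is miR-21a-5p, which fell. In CPM miR-21b itself had overlapping groups, 3.16 ± 0.692 for sham and 2.62 ± 0.533 for TAC.

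The miRNAs whose log2 CPM followed that of miR-21a-5p most closely over the 6 libraries were miR-296-3p (Pearson r = 0.978), miR-34c-5p (0.976), miR-298-5p (0.972), miR-214-3p (0.967) and miR-324-3p (0.951). The first 4 were called lower in TAC. miR-324-3p, with 48.0 ± 0.489 CPM for sham and 39.2 ± 1.51 for TAC, was not called (adjusted p = 0.153 by edgeR), but was called lower with library totals (-0.59) and with totals without the 5 most abundant (-0.45). Those most opposed were let-7d-3p (-0.983), miR-22-5p (-0.982), miR-499-5p (-0.975), miR-30c-1-3p (-0.975) and miR-30b-5p (-0.971), all called higher, among them the heart muscle miRNA miR-499-5p, at 2619 ± 117 and 4811 ± 189 CPM. The calls of miR-22-5p with any other scaling and of let-7d-3p with library totals were lost. These r values describe 6 libraries that fall into 2 groups, and mostly restate which rows differ between the groups.

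miR-21a belongs to several groups of miRNAs that are discussed together in heart disease. Of 29 miRNAs commonly described as raised in overloaded or failing hearts, 26 were tested: 8 fell (11.3% of all tested rows did), 1 rose and 17 passed in neither direction. Their median log2 change was -0.23, against 0.07 for all tested rows. Beside miR-21a-5p the falls with the smallest p were those of miR-214-3p (587 ± 110 CPM in sham, 196 ± 29.5 in TAC), miR-214-5p (-1.19 ± 0.19) and miR-199a-5p (-0.89 ± 0.16), which come largely from 1 noncoding transcript of mesenchymal cells. The falls of miR-199a-3p and miR-199b-3p, also among the 8, are of 1 mature sequence and are not independent. The 1 rise was that of miR-328-3p (0.31 ± 0.10, adjusted p = 0.0499 by edgeR), which was not called with RLE size factors, upper quartile factors, library totals or totals without the 5 most abundant miRNAs. The number of falls was 12 with RLE size factors (15.8% of all rows fell), 15 with library totals (28.8%) and 7 of 23 with a GC trend taken out (9.52%).

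Of 18 miRNAs described as promoting fibrosis, 16 were tested: 7 fell (11.3% of all tested rows did), 2 rose and 7 passed in neither direction. Their median was -0.35, and all 7 falls are among the 8 of the first list, miR-199a-3p and miR-199b-3p included. The rises were miR-208a-3p, encoded in an intron of a cardiac myosin gene (0.56 ± 0.13), and miR-328-3p, and neither was called with library totals. miR-208a-3p was also not called with a GC trend taken out (0.26). The number of falls was 8 with RLE size factors (15.8% of all rows fell), 9 with library totals (28.8%) and 6 of 12 with a GC trend taken out (9.52%). Of 20 miRNAs described as restraining fibrosis, 18 were tested: 12 rose (19.2% of all tested rows did), 1 fell and 5 passed in neither direction. Their median was 0.62. The smallest p among the rises were those of miR-101a-3p (2044 ± 133 CPM in sham, 3462 ± 258 in TAC), its close relative miR-101b-3p (0.73 ± 0.09) and miR-150-5p of lymphocytes (1.17 ± 0.15). The 1 fall was that of miR-214-3p, which is on both lists. With library totals 6 rose (7.06% of all rows did), and with a GC trend taken out 5 of 14 (11.1%).

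miR-21 transcription is known to respond to AP-1, STAT3 and NF-kB, factors of stress and inflammation. Of 22 miRNAs described as induced by them, 14 were tested, and 1 was called, miR-21a-5p itself, lower in TAC (11.3% of all tested rows were). The median of the list was -0.10. The other 12 tested members beside the 2 arms of miR-21a gave 0 calls, among them miR-146a-5p at 0.20, miR-132-3p at -0.23, miR-221-3p at -0.40 and miR-155-5p at 0.56, all chosen here after their values were seen. With RLE size factors 3 members were lower, where 15.8% of all rows were, and with library totals 6, where 28.8% were.

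Markers of some cell types differed between the groups too. The 9 heart muscle miRNAs summed to 167149 to 200217 CPM in sham and to 296635 to 355977 in TAC, and 7 of 8 tested rose (3 with library totals), where 19.2% of all rows rose and 11.3% fell. miR-133a, in this list, comes from 2 places in the genome. So does miR-1a-3p, whose 2 hairpins have the separate rows miR-1a-1-5p and miR-1a-2-5p. miR-1a-3p was the largest member, at 125091 ± 14846 CPM in sham and 226519 ± 23659 in TAC. How reads with 2 places were counted is not stated, so the sum may hold many reads more than once. Among 8 miRNAs of fibroblasts and other mesenchymal cells 5 fell, miR-199a-5p, miR-199a-3p, miR-199b-3p, miR-214-3p and miR-214-5p, of which miR-199a-3p and miR-199b-3p have 1 mature sequence and are not independent. In that list miR-143-3p, also a smooth muscle miRNA, rose from 37819 ± 4375 to 58934 ± 1568 CPM. It dominated the sum of the list, 53201 to 70635 CPM in sham and 75887 to 78304 in TAC. That sum adds the rows miR-199a-3p and miR-199b-3p of 1 sequence, so it too may hold reads more than once. The 4 smooth muscle miRNAs summed to 34626 to 43244 and 59519 to 62551 CPM, with 3 of 4 higher (2 with library totals, upper quartile factors or totals without the 5 most abundant). The 9 leukocyte miRNAs summed to 1197 to 1588 and 1595 to 1744 CPM, with 2 of 7 higher, a share near that of all rows (1 with each other scaling and 0 of 6 with a GC trend taken out). The 4 red blood cell miRNAs summed to 999 to 1164 and 1641 to 3062 CPM, with 1 of 3 higher. Of 4 endothelial miRNAs 1 was tested, miR-126b-3p, and it was not called (0.06 ± 0.33, adjusted p = 0.905 by edgeR). miR-126a-3p, miR-126a-5p and miR-126b-5p of endothelial cells, miR-142a-3p and miR-142b of leukocytes and miR-486a-5p of red blood cells were at 0 in every library. The same holds for miR-24-3p and miR-9-5p of the lists above. At each of these loci the table has another row on the other strand, and a 0 there does not measure absence. The part of such cell types in the fall of miR-21a-5p was not tested.

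The call of miR-21a-5p was kept in all 21 alternative analyses, with log2 changes from -1.46 to -1.01 and adjusted p up to 0.00619. The change was -1.46 with library totals and -1.44 when a trend with GC content was removed. It was -1.01 without sham 68, the mouse with the highest level, and -1.31 without TAC 29, the TAC mouse with the highest.

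**Figure D5:**
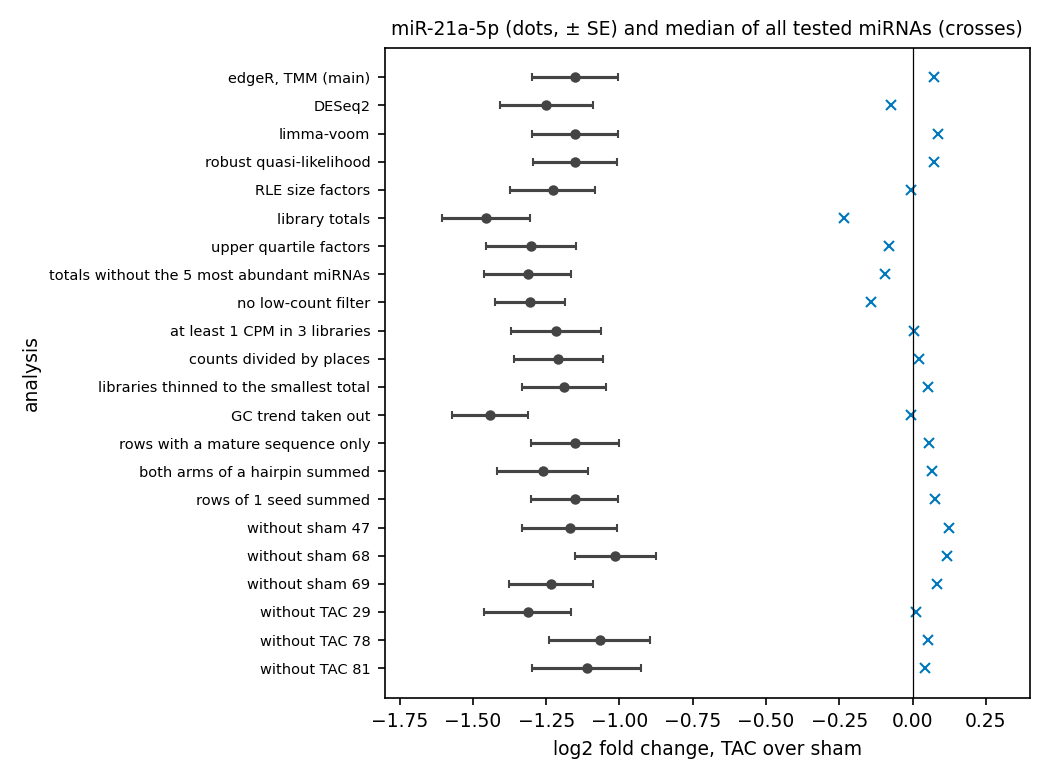
Log2 fold change of miR-21a-5p in TAC over sham (dots, ± SE) in the main analysis and 21 alternatives, with the median of all tested miRNAs in each (crosses). The dots lie between -1.46 and -1.01. Crosses move with the scaling, to -0.23 for library totals.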

How the data were processed

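Small RNA was counted per mature miRNA in 6 heart libraries, 3 sham and 3 TAC. The authors deposited integer counts per miRNA, with the genome places of each row, in 1 file, whose 6 sample columns carry the animal numbers. Per the submitters' processing notes the build was mm10, and the tools listed are HISAT2, DESeq2 and StringTie, without versions. How reads were trimmed, counted and assigned to a strand is not stated. Nothing in the labels pairs the mice or names a batch.

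The counts of all rows were tested with edgeR 4.0.16 in R 4.3.3 (filterByExpr, TMM, quasi-likelihood F-test, Benjamini-Hochberg over 354 rows), and SE is the log2 change divided by the root of F. CPM are TMM-scaled and use library totals of 1226187 to 3509001 counts, where 3 counts, the limit that a count of 0 allows, are 0.767 to 2.82 CPM. Other values were compared with exact permutation tests over mice (scipy 1.17.1). Arms were paired by name, the duplex was folded with ViennaRNA 2.7.2, and log2 CPM for correlations used a prior count of 2. Mature sequences from RefSeq (GRCm38.p6) matched 1675 rows. The pipeline was tested on simulated data. Named miRNAs are both arms, rows of the same seed, rows within 1000 kb, the 5 most and 5 least alike, the 2 next above and the 2 next below in level, up to 4 called members of each list (and up to 2 against its direction), the 3 hairpins with the largest shift between arms, and called cell type markers, of which the report gives examples. The miRNAs, lists and rule were chosen with earlier results of these data known. Alternatives were DESeq2 1.42.0, limma-voom (limma 3.58.1), robust quasi-likelihood, 4 other scalings, 2 other filters, counts divided by places, thinning, a GC trend (local regression, span 0.75, 315 rows), the same 315 rows without that trend (added after seeing the data), summed arms, summed seeds and each mouse left out.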

Additional observations from a re-analysis of the deposited data

How the results depend on the processing

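miR-21a-5p was called lower in each of the 21 alternatives. miR-21a-3p was not called in any of the 18 that tested it, and its log2 change of 0.29 turned to -0.013 with library totals and lay between -0.042 (without TAC 29) and 0.72 (without sham 69) when 1 mouse was left out. After thinning it fell under the filter on low counts and was not tested. The 108 calls of 354 rows became 89 of the 315 rows with a sequence (an analysis added after seeing the data), 65 of those 315 with the GC trend taken out, and 64 to 83 with 1 mouse left out, fewest without TAC 81 (64) and TAC 78 (69); the cause of the drop from 89 to 65 was not tested. The difference in the share of counts held by miR-21a-5p, -0.992 percentage points, was -1.39 where totals left out the 5 most abundant miRNAs, -1.26 with counts divided by places (a smaller denominator in each case), and -1.06 to -0.872 with 1 mouse left out. The ratio of the arms kept its direction in all 9 alternatives, from -2.10 to -1.02. The balance of higher and lower calls was 58 and 62 with DESeq2, 41 and 63 with upper quartile factors, 43 and 72 with those 5 left out of totals, 42 and 65 with no filter, 51 and 52 with counts divided by places and 39 and 47 with arms summed. No paired analysis was possible because the animal numbers are not shared between the groups. Depth limits the 3p arm, with 6 to 28 counts per library, and not the 5p arm, with at least 6278.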
